A study of Mus musculus with 114 samples.

Results

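The genes described here were 46 genes of Wnt signalling among the 29132 genes listed for mouse adipocytes. They comprised 19 Wnt ligands, 12 receptors (frizzled receptors and the co-receptors Lrp5 and Lrp6), 7 secreted antagonists, 4 genes of the destruction complex and its substrate β-catenin (Axin1, Apc, Gsk3b and Ctnnb1), 3 TCF/LEF factors (Tcf7l1, Tcf7l2 and Lef1) and the feedback target Axin2. The genes were matched by symbol (every Wnt, Fzd and Dkk gene with a number, Sfrp1, Sfrp2 and Sfrp4, and the named signal carriers) by a rule that reads no measured value but was drawn up with earlier results of these data known. Adipocytes were the floating cells left by collagenase digestion of perigonadal fat pads, taken from male mice of the strain C57BL/6J, and polyA RNA of each mouse was sequenced in bulk. Feeding with high fat diet (HFD) or chow (CD) began at an age of 6 weeks and lasted 8, 20 or 34 weeks, with no other genotype or agent in the labels. There were 6 mice in each of the 6 groups of diet and time, apart from 8 CD mice at 34 weeks, which gave 38 mice. The question of the comparisons was how gene expression in adipocytes changed with diet and with the time on diet.

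Wnt proteins are secreted lipid-modified ligands that bind frizzled receptors together with Lrp5 or Lrp6 at the cell surface. In the canonical branch, binding stops the destruction complex of Axin, Apc and Gsk3b from marking β-catenin for degradation, so that β-catenin accumulates and acts with TCF/LEF factors on target genes. Other ligands, of which Wnt5a and Wnt11 are the best known, signal mainly without β-catenin, and Sfrp and Dkk proteins block ligands or co-receptors outside the cell. In fat, canonical signalling is known for holding precursor cells back from becoming adipocytes.

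Promoter windows of RefSeq (GRCm38.p6) were found for 30 of the 46 genes. They were searched on both strands in the 250 bases before to 50 bases after each start for 3 forms of the sequence that TCF/LEF factors bind. The first, CTTTGAT, was in 3.73% of all 32851 windows. The letters of the second were CTTTGAA, present in 5.14%. Those of the third were CTTTGTT, present in 5.85%. Any of the 3 was present in 6 of 38 windows of the Wnt genes and in 13.9% of all windows. The 250 bases before the start are shown for the ligand Wnt11, the receptor Fzd7 and the factor Tcf7l2, which differed between diets and whose windows held a match, and for Axin2, the best known target of canonical signalling, whose window held none. Capitals mark the match, which reads ATCAAAG or AACAAAG where it lies on the other strand.
Wnt11 (chr7:98834862-98835111, plus strand, the match 51 to 45 bases before the start): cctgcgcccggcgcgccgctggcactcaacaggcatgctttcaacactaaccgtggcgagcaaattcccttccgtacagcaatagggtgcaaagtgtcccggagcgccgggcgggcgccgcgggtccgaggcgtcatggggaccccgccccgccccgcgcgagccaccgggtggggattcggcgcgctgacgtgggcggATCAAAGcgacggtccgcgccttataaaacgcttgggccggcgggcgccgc
Fzd7 (chr1:59481897-59482146, plus strand, the match 130 to 124 bases before the start): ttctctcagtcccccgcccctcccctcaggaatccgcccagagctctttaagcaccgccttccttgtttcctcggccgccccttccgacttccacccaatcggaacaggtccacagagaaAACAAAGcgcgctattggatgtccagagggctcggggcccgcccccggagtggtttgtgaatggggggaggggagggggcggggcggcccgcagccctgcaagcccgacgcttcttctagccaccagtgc
Tcf7l2 (chr19:55895071-55895320, plus strand, the inner of 2 starts, the match 14 to 8 bases before it): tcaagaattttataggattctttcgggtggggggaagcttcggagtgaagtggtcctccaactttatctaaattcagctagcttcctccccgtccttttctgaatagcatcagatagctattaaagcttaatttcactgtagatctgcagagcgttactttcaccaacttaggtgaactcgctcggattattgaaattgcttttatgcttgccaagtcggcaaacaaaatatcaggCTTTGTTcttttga
Axin2 (chr11:108920099-108920348, plus strand): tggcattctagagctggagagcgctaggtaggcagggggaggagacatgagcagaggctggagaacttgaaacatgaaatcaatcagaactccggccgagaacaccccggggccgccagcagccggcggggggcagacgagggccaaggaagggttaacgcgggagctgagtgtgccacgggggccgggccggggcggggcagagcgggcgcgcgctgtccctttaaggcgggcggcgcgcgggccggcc
The matches are a description of the letters in these windows. No 2 matches overlapped in any window of the 46 genes. The other start of Tcf7l2, at the outer promoter, and the second start of Wnt11 held no match. The RefSeq gene start of Axin2 lies further upstream, at chr11:108917828, and had no window, so it was not searched.

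Levels are given as CPM, the reads of a gene per 1000000 reads on the listed genes of a mouse. Depth ranged from 9275711 to 15480388 reads per mouse (median 12522298), so that 1 read was worth 0.0646 to 0.108 CPM, and at 8 weeks every HFD mouse was sequenced more deeply than every CD mouse. A gene with 0 reads in a mouse may still have an expected count of up to 3 reads, which covers counting error only, since reads carried no molecular identifiers. Macrophage markers stood apart in 20 week CD mouse 1 (2545 CPM against 852 to 1291 CPM in the other 5) and in 34 week CD mouse 5 (9164 CPM, with 1015 CPM of progenitor and fibroblast markers). Each limma p-value sets a difference between groups against the spread between mice within groups, pooled over the 6 groups.

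Of the 46 genes, 20 passed the filter on low values (a mean log2(CPM + 1) above 2.0 over all mice), which 10343 of 29132 genes passed. The 20 were the ligands Wnt5a, Wnt9a and Wnt11 of 19, the receptors Fzd1, Fzd2, Fzd3, Fzd4, Fzd5, Fzd7, Fzd8, Lrp5 and Lrp6 of 12, Sfrp1 of 7 antagonists, all 4 genes of the destruction complex and β-catenin, Tcf7l1 and Tcf7l2 of 3 TCF/LEF factors, and Axin2. Wnt3a, Wnt7a, Wnt8a and Dkk4 had no read in any of the 38 mice. Lef1, the factor that gives the TCF/LEF family its second name, had 5 reads in all mice together and no read in 34 of them. Wnt10b, a canonical ligand known for blocking the formation of adipocytes, had 35 reads in all mice and none in 20 mice. The highest values among the other genes under the filter were 11.98 CPM for Sfrp2, 6.10 for Wnt2b, 5.599 for Wnt5b, 5.13 for Dkk3, 4.71 for Fzd6 and 4.28 for Wnt4, each in 1 mouse, and the medians of these genes over all mice lay between 0.197 CPM (Wnt4) and 1.48 CPM (Wnt5b). The remaining genes under the filter stayed under 2 CPM in every mouse.

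Levels were compared between genes per kb of exon sequence. Ctnnb1, which encodes β-catenin, stood highest with a median of 71.7 CPM per kb over all mice, followed by the receptor Fzd4 with 42.3 and the co-receptor Lrp6 with 12.3. Axin1 (9.79), Gsk3b (9.33), Lrp5 (6.58), Apc (6.32) and Fzd1 (6.03 CPM per kb) came next, and Fzd3 was lowest of the 20 genes that passed the filter (0.292). Fzd4 made up most of the summed frizzled level per kb, with group medians between 63.4% (34 week HFD) and 76.3% (8 week HFD), and Wnt5a was the ligand with the largest share, between 34.8% (20 week HFD) and 48.6% (34 week HFD) of the summed ligand level per kb. The share of Fzd4 was 74.1% and 76.3% (CD and HFD) at 8 weeks, 73.1% and 66.1% at 20 weeks, and 71.4% and 63.4% at 34 weeks, and the shares of single mice overlapped between diets at 8 and 34 weeks, but not at 20 weeks. Fzd4 and Lrp6 were therefore the receptor and co-receptor with the most reads per length in these cells.

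**Figure D1:**
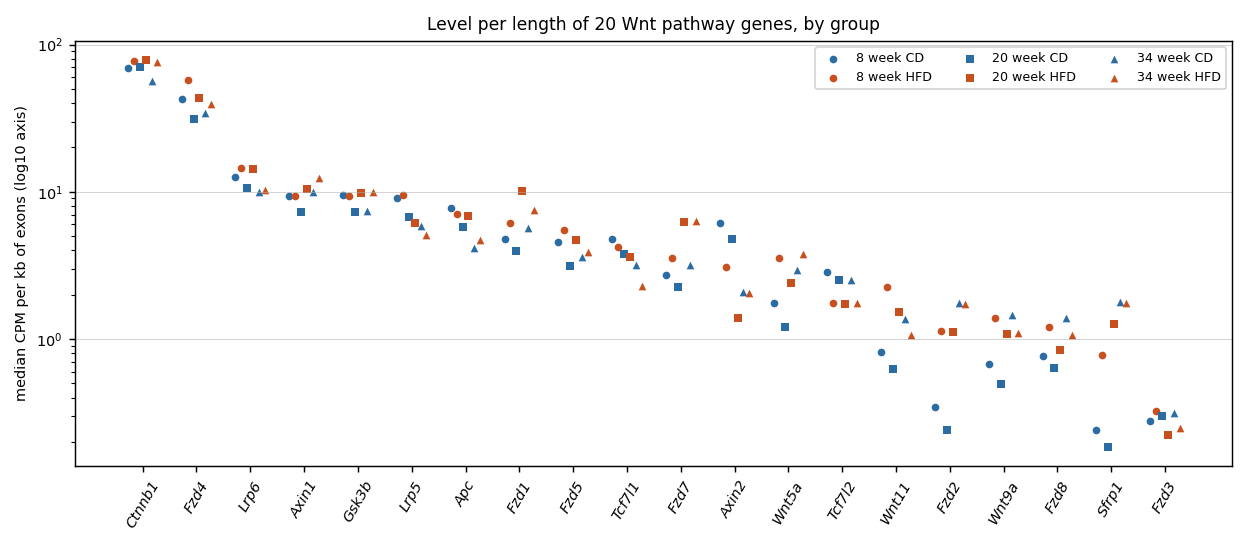
Median level per kb of exon sequence in each group of diet and time, for the 20 genes that passed the filter, on a log axis. Over all 38 mice the medians of Ctnnb1 (71.7 CPM per kb), Fzd4 (42.3) and Lrp6 (12.3) stood highest.

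The diet comparison was made with limma on log2(CPM + 1) over the 10343 genes that passed the filter, with Benjamini-Hochberg adjustment over those genes, and a gene was called at an adjusted p under 0.05. Differences are HFD minus CD, and on this scale they understate the change of low genes. At 8 weeks 7 of the 20 tested Wnt genes were called, 5 higher and 2 lower in HFD, while 44.9% of all genes tested were called, 29.8% higher and 15.1% lower. At 20 weeks 13 of 20 were called, 11 higher and 2 lower, against 57.0% of all genes (38.3% higher and 18.7% lower). At 34 weeks 5 of 20 were called, 3 higher and 2 lower, against 43.2% of all genes (27.5% higher and 15.7% lower). The median log2 difference of the 20 Wnt genes was 0.22 at 8 weeks, 0.46 at 20 weeks and 0.07 at 34 weeks, and that of all genes tested was 0.11, 0.14 and 0.07. The 3 tested ligands and Fzd2 were higher in HFD at 8 and 20 weeks, the factor Tcf7l2 was lower at every time, and Axin2 was lower at 8 and 20 weeks and not at 34 weeks. Wnt9a, Fzd2 and Sfrp1 passed the filter narrowly, with means of 2.06, 2.09 and 2.24. Their median levels in CD at 8 and 20 weeks lay under that threshold, so they passed through their higher groups. Their direction, and the count of tested ligands, are therefore not independent of the filter.

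The scaling moved the balance of calls. With TMM factors the median of all genes was 0.01 at 8 weeks, −0.07 at 20 weeks and −0.01 at 34 weeks, in place of the 0.11, 0.14 and 0.07 of the deposited scaling, and the split of all genes called at 20 weeks turned from 3957 higher and 1937 lower to 2711 higher and 3358 lower. Of the Wnt genes, 7 were then called higher and 3 lower at 20 weeks, with Axin1, Fzd5, Gsk3b and Lrp6 no longer called and Fzd3 called lower (log2 difference −0.44), and with median-of-ratios factors 9 were called higher and 3 lower. At 8 weeks 5 were called higher and 2 lower with either set of factors, and all genes split into 2332 higher and 2212 lower with TMM factors. At 34 weeks 3 were called higher and 3 lower with either set, and all genes split into 2317 higher and 2150 lower.

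**Figure D2:**
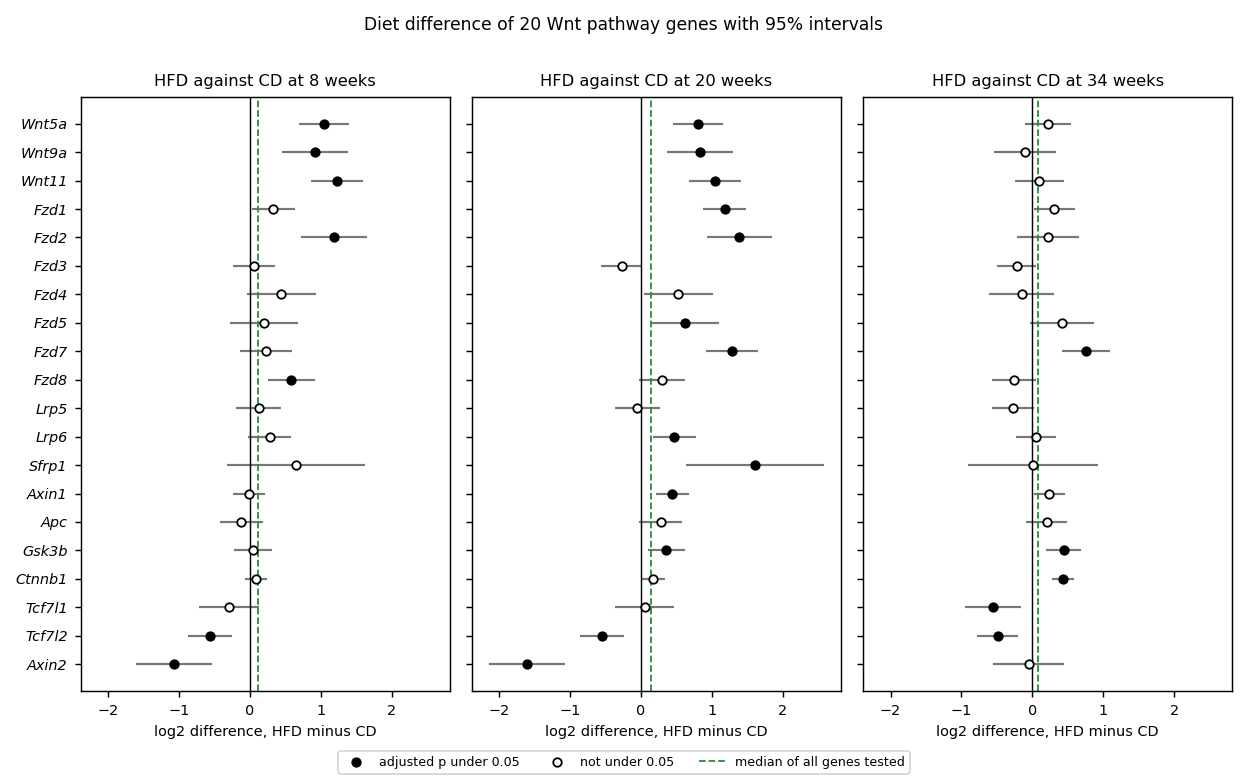
HFD minus CD log2 difference of the 20 tested Wnt genes at each time with 95% intervals, filled where the adjusted p was under 0.05, with the median of all genes tested as a dashed line. The 3 ligands and Fzd2 lie between 0.81 and 1.39 at 8 and 20 weeks and near 0 at 34 weeks, Tcf7l2 lies at −0.57, −0.55 and −0.49, and Axin2 at −1.07, −1.61 and −0.05.

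Among the ligands, Wnt5a, Wnt9a and Wnt11 were each higher in HFD at 8 and at 20 weeks, and none was called at 34 weeks. Wnt5a (chr14:28504750-28527448), a ligand best known for signalling without β-catenin, ranged from 8.56 to 18.1 CPM (median 13.7) in 8 week CD mice and from 22.8 to 34.6 CPM (median 27.6) in 8 week HFD mice. By 20 weeks the range was 7.80 to 15.7 CPM (median 9.42) in CD and 15.4 to 20.0 CPM (median 18.9) in HFD. At 34 weeks the values were 19.6 to 31.3 CPM (median 23.1) in CD and 17.7 to 40.2 CPM (median 29.4) in HFD. The diets did not overlap at 8 weeks, overlapped at 20 weeks by CD mouse 2 alone, the highest CD mouse, and overlapped widely at 34 weeks. The log2 difference of Wnt5a was 1.04 (SE 0.174, adjusted p = 2.59e-05, limma) at 8 weeks, 0.81 (SE 0.174, adjusted p = 0.000191) at 20 weeks and 0.22 (95% interval −0.11 to 0.55, adjusted p = 0.271) at 34 weeks. In CD mice themselves Wnt5a was 0.83 higher on the log2 scale at 34 than at 8 weeks (adjusted p = 5.33e-05, limma), with all 8 mice at 34 weeks above the 6 mice at 8 weeks.

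Wnt11 (chr7:98835112-98855195), another ligand of the branch without β-catenin, showed the clearest separation. It ranged from 2.41 to 4.36 CPM (median 3.38) in 8 week CD and from 8.21 to 10.5 CPM (median 9.34) in 8 week HFD mice. At 20 weeks it ranged from 1.83 to 3.43 CPM (median 2.58) in CD and from 5.89 to 7.16 CPM (median 6.27) in HFD. At 34 weeks it ranged from 2.79 to 7.40 CPM (median 5.62) in CD and from 3.77 to 8.96 CPM (median 4.38) in HFD. At 8 and 20 weeks no value of an HFD mouse was as low as that of any CD mouse, whereas at 34 weeks the CD median was the higher and the ranges overlapped. HFD minus CD, the log2 difference was 1.23 (SE 0.184, adjusted p = 6.96e-06, limma) at 8 weeks, 1.04 (SE 0.184, adjusted p = 1.54e-05) at 20 weeks and 0.10 (95% interval −0.25 to 0.45, adjusted p = 0.653) at 34 weeks. The level fell with time on HFD, by 0.47 on the log2 scale from 8 to 20 weeks (adjusted p = 0.0413, limma) and by 0.73 from 8 to 34 weeks (adjusted p = 0.00133). In CD it was 0.40 higher at 34 than at 8 weeks (adjusted p = 0.039, limma), a call that was lost with TMM factors (0.30, adjusted p = 0.115). Of the exon bases of Wnt11, 8.80% lie opposite Gm8398, and although the library kit marks strand, the strand setting of the counting is not given in the sources used here.

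Wnt9a (chr11:59306928-59333552), a ligand of the canonical branch, was low, so that its values rest on few reads. It ranged from 1.19 to 3.22 CPM (median 2.25) in 8 week CD and from 3.21 to 7.62 CPM (median 4.65) in 8 week HFD mice. By 20 weeks the range was 0.764 to 2.495 CPM (median 1.64) in CD and 2.29 to 4.95 CPM (median 3.60) in HFD. At 34 weeks it ranged from 1.03 to 5.57 CPM (median 4.83) in CD and from 2.25 to 5.13 CPM (median 3.65) in HFD. At 8 and at 20 weeks 5 of 6 HFD mice lay above every CD mouse, and at 34 weeks no HFD mouse did. The log2 difference was 0.92 (SE 0.230, adjusted p = 0.00187, limma) at 8 weeks, 0.83 (SE 0.230, adjusted p = 0.00268) at 20 weeks and −0.10 (95% interval −0.54 to 0.33, adjusted p = 0.716) at 34 weeks. Wnt9a too was higher in CD at 34 than at 8 weeks (log2 difference 0.68, adjusted p = 0.00646, limma).

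The diet difference itself changed with time for all 3 ligands. From 8 to 34 weeks it dropped by 0.82 (SE 0.238, adjusted p = 0.00963, limma) for Wnt5a, by 1.13 (SE 0.251, adjusted p = 0.00117) for Wnt11 and by 1.02 (SE 0.315, adjusted p = 0.0143) for Wnt9a. From 20 to 34 weeks it dropped by 0.94 for Wnt11 (SE 0.251, adjusted p = 0.0148, limma), while the changes of Wnt5a (−0.59, adjusted p = 0.103) and Wnt9a (−0.93, adjusted p = 0.0516) were not called. None of the 3 ligands was called for a change from 8 to 20 weeks. Over the 20 tested Wnt genes, 7 were called for a change of the diet difference from 8 to 34 weeks, against 28.8% of all genes tested, 2 from 8 to 20 weeks against 4.49%, and 4 from 20 to 34 weeks against 10.5%. The 7 were the 3 ligands, Fzd2 and Fzd8, in all of which the difference fell, and Axin2 and Ctnnb1, in which it rose.

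**Figure D3:**
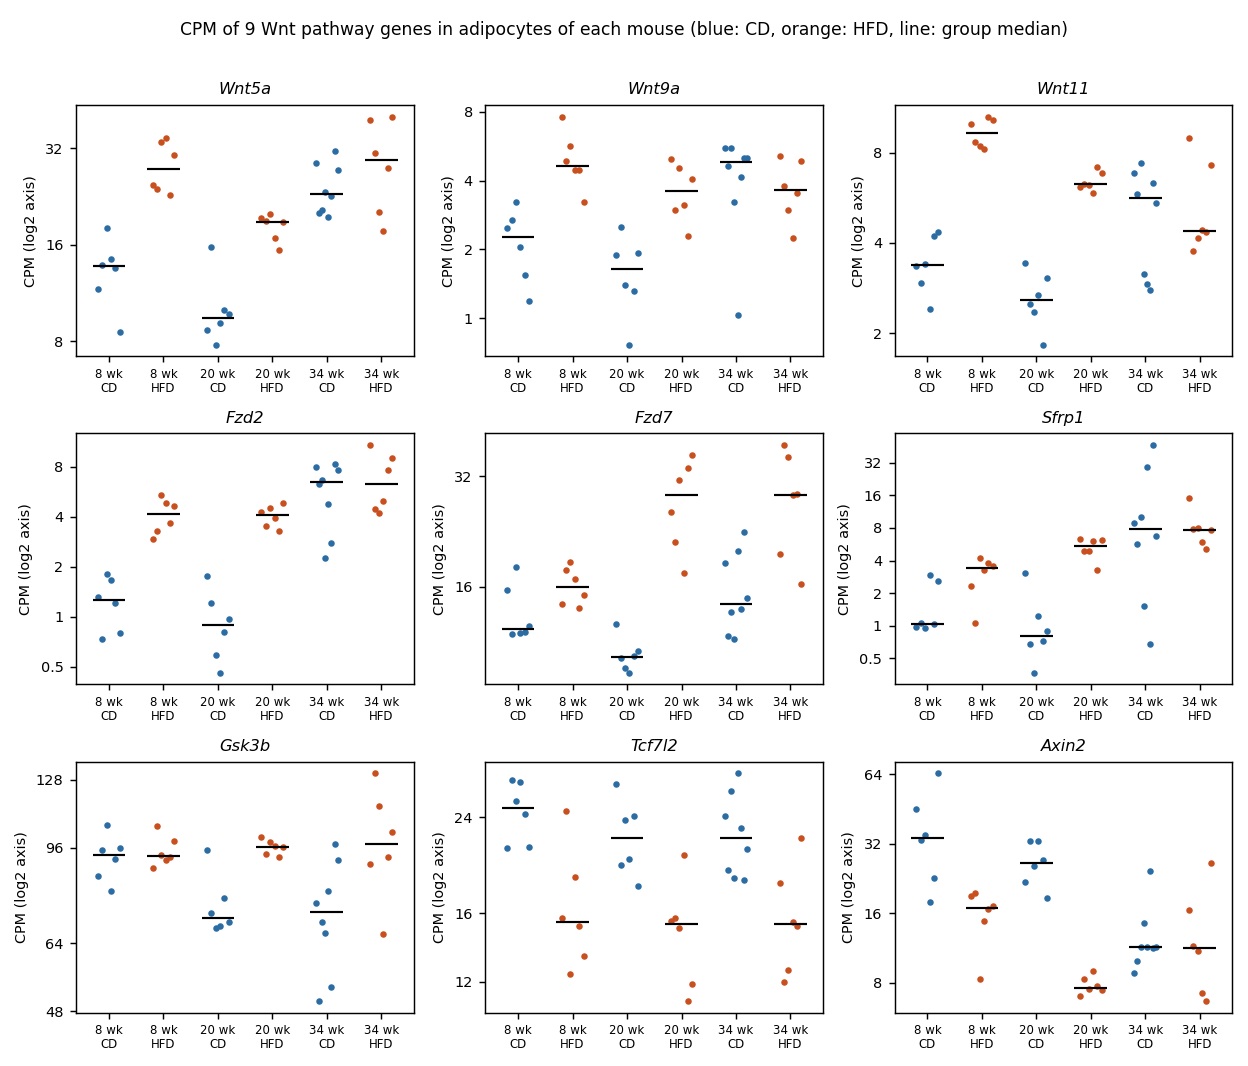
CPM on a log2 axis in each of the 38 mice for 9 Wnt genes, with CD in blue, HFD in orange and a line at each group median. Wnt11 and Fzd2 lie higher in every HFD mouse than in every CD mouse at 8 and 20 weeks, Axin2 lies lower in every HFD mouse at 20 weeks, and at 34 weeks the diets overlap in all 9 panels.

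Among the receptors, Fzd2 and Fzd8 were called higher in HFD at 8 weeks, Fzd1, Fzd2, Fzd5, Fzd7 and Lrp6 at 20 weeks, and Fzd7 at 34 weeks. No receptor was called lower in HFD by limma at the deposited scaling. With TMM factors Fzd3 was called lower at 20 weeks, and a receptor was among the 3 Wnt genes called lower at 34 weeks. Fzd2 (chr11:102604396-102608058), a receptor for ligands such as Wnt5a, changed most. It ranged from 0.734 to 1.80 CPM (median 1.26) in 8 week CD and from 2.94 to 5.43 CPM (median 4.15) in 8 week HFD mice. At 20 weeks it ranged from 0.458 to 1.75 CPM (median 0.886) in CD and from 3.27 to 4.84 CPM (median 4.09) in HFD. At 34 weeks it ranged from 2.25 to 8.28 CPM (median 6.45) in CD and from 4.22 to 10.8 CPM (median 6.29) in HFD. The diets did not overlap at 8 or 20 weeks, and at 34 weeks CD mice had reached the levels of HFD mice. HFD minus CD, the log2 difference was 1.19 (SE 0.228, adjusted p = 0.000136, limma), 1.39 (SE 0.228, adjusted p = 5.96e-06) and 0.22 (95% interval −0.21 to 0.66, adjusted p = 0.41) at 8, 20 and 34 weeks. In CD mice Fzd2 was 1.53 higher on the log2 scale at 34 than at 8 weeks (SE 0.214, adjusted p = 4.15e-07, limma), with all 8 mice at 34 weeks above all 6 at 8 weeks. Its diet difference dropped by 0.97 from 8 to 34 weeks (SE 0.313, adjusted p = 0.0196, limma) and by 1.17 from 20 to 34 weeks (SE 0.313, adjusted p = 0.0152).

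Fzd7 (chr1:59482424-59486955), a frizzled receptor used in canonical signalling, was called higher in HFD at 20 and 34 weeks. It ranged from 11.9 to 18.1 CPM (median 12.3) in 8 week CD and from 14.0 to 18.7 CPM (median 16.0) in 8 week HFD mice. By 20 weeks the range was 9.32 to 12.7 CPM (median 10.3) in CD and 17.4 to 36.5 CPM (median 28.4) in HFD. At 34 weeks it ranged from 11.5 to 22.6 CPM (median 14.4) in CD and from 16.3 to 39.0 CPM (median 28.5) in HFD. The diets overlapped at 8 weeks, were apart at 20 weeks, and at 34 weeks 4 of 6 HFD mice lay above every CD mouse. The log2 difference was 0.23 (95% interval −0.13 to 0.60, adjusted p = 0.293, limma) at 8 weeks, 1.28 (SE 0.180, adjusted p = 6.59e-07) at 20 weeks and 0.76 (SE 0.168, adjusted p = 0.000719) at 34 weeks. The diet difference grew by 1.05 from 8 to 20 weeks (SE 0.254, adjusted p = 0.0207, limma). In HFD mice the level was 0.70 higher on the log2 scale at 20 than at 8 weeks (adjusted p = 0.00317, limma).

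Fzd1, a close relative of Fzd2 and Fzd7, ranged from 13.5 to 31.9 CPM (median 16.5) in 20 week CD and from 37.6 to 47.9 CPM (median 42.1) in 20 week HFD mice, without overlap (log2 difference 1.18, SE 0.150, adjusted p = 1.71e-07, limma). Its difference was 0.33 at 8 weeks and 0.31 at 34 weeks, neither called (adjusted p = 0.0727 and 0.0701, limma). It grew by 0.85 from 8 to 20 weeks (adjusted p = 0.0207, limma) and dropped by 0.87 from 20 to 34 weeks (adjusted p = 0.00723). Fzd8 was higher in HFD at 8 weeks, from 3.89 to 5.96 CPM in CD and from 6.4997 to 9.69 CPM in HFD without overlap (log2 difference 0.59, adjusted p = 0.00398, limma), and had a difference of −0.26 at 34 weeks (adjusted p = 0.166). Its diet difference dropped by 0.84 from 8 to 34 weeks (adjusted p = 0.00464, limma). The co-receptor Lrp6, which ranged from 123 to 149 CPM in CD and from 164 to 231 CPM in HFD at 20 weeks, was called there (log2 difference 0.47, adjusted p = 0.008, limma), but not with TMM factors (0.25, adjusted p = 0.0926). Lrp5, the other co-receptor, had differences of 0.12, −0.05 and −0.28 at 8, 20 and 34 weeks and was not called at the deposited scaling. Fzd4, the most abundant receptor, had medians of 285 and 388 CPM (CD and HFD) at 8 weeks, 210 and 289 CPM at 20 weeks and 230 and 267 CPM at 34 weeks, and its differences of 0.44, 0.53 and −0.15 were not called (adjusted p = 0.13, 0.0609 and 0.606, limma). Fzd3 had differences of 0.06, −0.28 and −0.22, none called at the deposited scaling, and Fzd5 was called at 20 weeks alone (0.62).

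Sfrp1 (chr8:23411502-23449632), a secreted protein that binds Wnt ligands and was the one antagonist past the filter on low values, was higher in HFD at 20 weeks. It ranged from 0.947 to 2.96 CPM (median 1.05) in 8 week CD and from 1.06 to 4.199 CPM (median 3.43) in 8 week HFD mice. At 20 weeks it ranged from 0.368 to 3.08 CPM (median 0.812) in CD and from 3.27 to 6.28 CPM (median 5.49) in HFD, without overlap. At 34 weeks it ranged from 0.677 to 46.7 CPM (median 7.78) in CD and from 5.10 to 15.1 CPM (median 7.73) in HFD. The spread of the 34 week CD mice was wide, since CD mice 5 and 7 held 29.3 and 46.7 CPM and CD mice 4 and 6 held 1.53 and 0.677 CPM. HFD minus CD, the log2 difference was 0.65 (95% interval −0.33 to 1.62, adjusted p = 0.275, limma) at 8 weeks, 1.61 (SE 0.481, adjusted p = 0.00493) at 20 weeks and 0.01 (95% interval −0.91 to 0.92, adjusted p = 0.992) at 34 weeks, where its sign turned with TMM factors (−0.058). In CD it was 1.82 higher on the log2 scale at 34 than at 8 weeks (SE 0.450, adjusted p = 0.000719, limma).

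The low genes could be tested on whole reads with edgeR's quasi-likelihood test, which took 12924 genes and 27 of the 46 Wnt genes. It called 10 Wnt genes at 8 weeks, 12 at 20 weeks and 11 at 34 weeks, against 41.8%, 57.5% and 42.9% of all genes it tested. Dkk3, a divergent member of the Dickkopf family, was higher in HFD at 8 weeks (log2 fold change 1.62, adjusted p = 0.00944, edgeR) and at 20 weeks (1.24, adjusted p = 0.0135), with medians of 0.292 and 0.994 CPM at 8 weeks and 0.807 and 2.35 CPM at 20 weeks (CD and HFD) and no overlap at either time. Sfrp4, a secreted antagonist, was higher at 8 weeks (2.21, adjusted p = 0.00074, edgeR) and 20 weeks (1.23, adjusted p = 0.0203) and lower at 34 weeks (−1.35, adjusted p = 0.012), with group medians of at most 0.860 CPM. Sfrp2 was lower in HFD at 34 weeks (−2.55, adjusted p = 0.00326, edgeR), where medians were 1.80 CPM in CD and 0.465 CPM in HFD and 1 CD mouse held 11.98 CPM. The receptor Fzd6 was higher at 8 weeks (1.21, adjusted p = 0.0243, edgeR) and 34 weeks (1.12, adjusted p = 0.0193), and the ligand Wnt5b was lower at 34 weeks (−1.07, adjusted p = 0.0137). Wnt2b and Wnt8b were not called at any time by this test.

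Of the destruction complex, Gsk3b (chr16:38089001-38246084), the kinase that phosphorylates β-catenin, moved little. It ranged from 79.9 to 106 CPM (median 93.1) in 8 week CD and from 88.0 to 105 CPM (median 92.6) in 8 week HFD mice. By 20 weeks the range was 68.4 to 94.9 CPM (median 71.4) in CD and 92.1 to 100.5 CPM (median 96.4) in HFD, and at 34 weeks from 50.1 to 97.5 CPM (median 73.1) in CD and from 66.5 to 132 CPM (median 97.4) in HFD. The diets overlapped at every time. The log2 difference was 0.04 (95% interval −0.22 to 0.31, adjusted p = 0.811, limma) at 8 weeks, where its sign turned with TMM factors, 0.36 (SE 0.130, adjusted p = 0.0197) at 20 weeks and 0.44 (SE 0.122, adjusted p = 0.00414) at 34 weeks. The call at 20 weeks was lost with TMM factors (0.14, adjusted p = 0.305), and that at 34 weeks held (0.35, adjusted p = 0.00977).

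Ctnnb1, the gene for β-catenin itself, ranged from 255 to 352 CPM (median 294) in 34 week CD mice and from 357 to 468 CPM (median 398) in 34 week HFD mice. It was the sole Wnt gene whose diets did not overlap at 34 weeks (log2 difference 0.43, SE 0.073, adjusted p = 5.91e-05, limma), and 2.46% of all genes tested were apart at that time. At 8 and 20 weeks its differences were 0.09 and 0.17 and not called (adjusted p = 0.375 and 0.0561, limma), and both turned sign with TMM factors. In CD it fell by 0.27 on the log2 scale from 8 to 34 weeks (adjusted p = 0.00155, limma). Of its exon bases, 15.1% are shared with other genes, mostly with Ulk4 on the other strand. Axin1, the scaffold of the complex, was called at 20 weeks (0.44) at the deposited scaling alone, and Apc, its other scaffold, had differences of −0.12, 0.28 and 0.20 and was not called. At 8 weeks 5 of the 20 Wnt genes did not overlap between diets, all higher in HFD (Wnt5a, Wnt11, Fzd2, Fzd8 and Lrp6), against 22.8% of all genes tested. At 20 weeks 7 did not overlap, 6 higher (Wnt11, Fzd1, Fzd2, Fzd7, Lrp6 and Sfrp1) and Axin2 lower, against 37.2% of all genes.

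Tcf7l2 (chr19:55741820-55933654), the TCF factor that carries β-catenin to target genes in adipocytes, was lower in HFD at all 3 times. It ranged from 21.1 to 28.0 CPM (median 25.0) in 8 week CD and from 12.4 to 24.6 CPM (median 15.5) in 8 week HFD mice. At 20 weeks it ranged from 17.9 to 27.6 CPM (median 21.97) in CD and from 11.1 to 20.5 CPM (median 15.3) in HFD, and at 34 weeks from 18.4 to 28.9 CPM (median 21.95) in CD and from 11.99 to 22.002 CPM (median 15.3) in HFD. At each time 5 of 6 HFD mice lay below every CD mouse. HFD minus CD, the log2 difference was −0.57 (SE 0.152, adjusted p = 0.00338, limma) at 8 weeks, −0.55 (SE 0.152, adjusted p = 0.00253) at 20 weeks and −0.49 (SE 0.142, adjusted p = 0.00664) at 34 weeks, and it was called at all times with TMM factors (−0.67, −0.76 and −0.57). The difference did not change between any 2 times by a size that was called, and its change from 8 to 34 weeks was 0.08 (95% interval −0.34 to 0.50). Tcf7l1, a related factor that mainly represses, was lower at 34 weeks (−0.56, SE 0.193, adjusted p = 0.0197, limma), with medians of 12.5 CPM in CD and 8.996 CPM in HFD, and was not called at 8 or 20 weeks (−0.30 and 0.05).

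Axin2 (chr11:108920349-108950783), a scaffold of the destruction complex and a direct target of canonical signalling, was lower in HFD at 8 and 20 weeks. It ranged from 17.9 to 64.6 CPM (median 34.0) in 8 week CD and from 8.27 to 19.5 CPM (median 16.9) in 8 week HFD mice. At 20 weeks it ranged from 18.5 to 32.9 CPM (median 26.5) in CD and from 7.02 to 9.01 CPM (median 7.62) in HFD. At 34 weeks it ranged from 8.82 to 24.5 CPM (median 11.4) in CD and from 6.66 to 26.4 CPM (median 11.3) in HFD. At 8 weeks 4 of 6 HFD mice lay below every CD mouse, at 20 weeks all 6 did, and at 34 weeks the medians were alike. The log2 difference was −1.07 (SE 0.264, adjusted p = 0.00168, limma) at 8 weeks, −1.61 (SE 0.264, adjusted p = 5.60e-06) at 20 weeks and −0.05 (95% interval −0.56 to 0.45, adjusted p = 0.873) at 34 weeks. The diet difference rose by 1.02 from 8 to 34 weeks (SE 0.362, adjusted p = 0.0327, limma) and by 1.56 from 20 to 34 weeks (SE 0.362, adjusted p = 0.00653). The first of these was called in 21 of 26 fits that each left out 1 mouse. It was lost without 8 week CD mouse 1 or 6, 8 week HFD mouse 3, or 34 week HFD mouse 1 or 6, and was weakest without 8 week CD mouse 6 (adjusted p = 0.0765). In CD mice Axin2 fell by 1.36 on the log2 scale from 8 to 34 weeks (SE 0.247, adjusted p = 1.87e-05, limma), and in HFD mice it fell by 0.89 from 8 to 20 weeks (adjusted p = 0.00928).

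Time on diet was compared within each diet. All mice began at an age of 6 weeks, so time on diet and age cannot be told apart here. In CD mice 14 of the 20 tested Wnt genes were called between 34 and 8 weeks, against 64.7% of all genes tested, 6 higher (40.1% of all genes) and 8 lower (24.6%). The 6 were Wnt5a, Wnt9a, Wnt11, Fzd2, Fzd8 (log2 difference 0.55) and Sfrp1, and the 8 were Axin2, Apc (−0.76), Fzd5 (−0.66), Tcf7l1 (−0.60), Lrp5 (−0.43), Gsk3b (−0.36), Lrp6 (−0.34) and Ctnnb1 (−0.27). The 3 tested ligands were thus higher at 34 than at 8 weeks on chow (Wnt11 at the deposited scaling, not with TMM factors), while 3 genes of the destruction complex and β-catenin, both co-receptors and a TCF factor were lower. Wnt9a, Fzd2 and Sfrp1 passed the filter through their higher groups, and 34 week CD is among these. Their rises with time, and the count of tested ligands, are therefore not independent of the filter. Between 20 and 8 weeks on CD no Wnt gene was called by limma, against 3.58% of all genes tested. An unadjusted p under 0.05 was reached by 7 of the 20 Wnt genes and by 1784 of all 10343 genes tested. DESeq2 on whole reads called 1 of the 28 Wnt genes it tested, and 718 of 14173 genes. In HFD mice 8 were called between 20 and 8 weeks, against 36.5% of all genes, with Fzd1 (0.72) and Fzd7 (0.70) higher and Axin2, Wnt5a (−0.60), Lrp5 (−0.58), Fzd8 (−0.55), Wnt11 (−0.47) and Fzd3 (−0.37) lower. Between 34 and 8 weeks on HFD 10 were called, against 52.5% of all genes, with Sfrp1 (1.18), Fzd7 (0.70), Fzd2 (0.56) and Axin1 (0.38) higher and Tcf7l1 (−0.86), Lrp5 (−0.83), Fzd4 (−0.74), Wnt11 (−0.73), Lrp6 (−0.58) and Apc (−0.43) lower. With macrophage markers as a covariate these counts on HFD were 0 and 5. These time comparisons and the diet comparisons share the same mice.

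Other genes of the pathway, from a list of 64 of which 62 were in the table and 36 were tested, were called higher and lower in HFD as 9 and 7 at 8 weeks, 13 and 5 at 20 weeks, and 5 and 7 at 34 weeks. These are 16, 18 and 12 of 36, beside the 44.9%, 57.0% and 43.2% of all genes called at those times. Their median log2 difference was 0.08, 0.21 and −0.02. The largest rises at 8 and 20 weeks were those of Sfrp5, a secreted antagonist made by adipocytes, and of Nkd1, an inhibitor that acts on dishevelled. Nkd1 is also on the list of targets of canonical signalling described below. Sfrp5 had medians of 27.6 and 427 CPM (CD and HFD) at 8 weeks, 20.7 and 282 CPM at 20 weeks and 198 and 255 CPM at 34 weeks, with log2 differences of 3.67 (adjusted p = 3.81e-06, limma), 3.97 (adjusted p = 2.67e-07) and 0.57 (adjusted p = 0.348). Nkd1 had medians of 9.29 and 43.7 CPM at 8 weeks, 5.09 and 25.6 CPM at 20 weeks and 38.04 and 32.9 CPM at 34 weeks, with log2 differences of 2.05 (adjusted p = 1.34e-05, limma), 2.32 (adjusted p = 5.61e-07) and 0.14 (adjusted p = 0.722). Both were thus apart between diets at 8 and 20 weeks and overlapped at 34 weeks, where CD mice had risen, and their diet differences dropped from 8 to 34 weeks by 3.10 (adjusted p = 0.00163, limma) and 1.91 (adjusted p = 0.00167).

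The largest falls on that list were those of Celsr2, a cadherin of planar cell polarity (−0.78 at 8 weeks and −1.02 at 20 weeks), Crebbp, a co-activator of β-catenin (−0.73 at 8 weeks), Pygo1, a nuclear partner of β-catenin (−1.39 at 20 weeks and −1.11 at 34 weeks), and Apcdd1, a membrane inhibitor of Wnt signalling (−0.89 at 34 weeks). Pygo1 had medians of 10.3 and 3.43 CPM at 20 weeks and 9.18 and 3.86 CPM at 34 weeks (CD and HFD), without overlap at either time. Tle4, a co-repressor that binds TCF factors, and Ctnnbip1, which keeps β-catenin from TCF factors, were the largest rises at 34 weeks (0.82 and 0.40), the second of which was lost with TMM factors (adjusted p = 0.072). Of the ligand secretion genes, Porcn, which attaches the lipid, was lower at 8 and 20 weeks (−0.41 and −0.42). Wls, the carrier of the ligands, was called higher at 8 and 34 weeks (0.20 and 0.21) and not called at 20 weeks (−0.03). Both calls of Wls were lost with TMM factors (adjusted p = 0.36 and 0.193, limma), which called it lower at 20 weeks (−0.24, adjusted p = 0.00861), and no call of Porcn or Wls held with either marker covariate.

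Of a list of 21 genes known as targets of canonical signalling, 17 were in the table and 11 were tested, and 3 were higher and 4 lower in HFD at 8 weeks, 4 and 1 at 20 weeks, and 2 and 3 at 34 weeks. These 7, 5 and 5 of 11 likewise stand beside 44.9%, 57.0% and 43.2% of all genes. Their median log2 difference was −0.07, −0.25 and −0.26. The list shares genes with that of the other pathway genes, so Nkd1, Znrf3 and Apcdd1 are counted in both. Nkd1 was the largest rise among the targets at 8 weeks and was also called higher at 20 weeks. Znrf3 was called lower at 8 weeks, and Apcdd1 was among the largest falls at 34 weeks. Ccnd1, the gene of cyclin D1, rose with medians from 1.31 to 7.44 CPM at 8 weeks, from 2.58 to 33.5 CPM at 20 weeks and from 5.596 to 58.6 CPM at 34 weeks (CD to HFD; log2 difference 1.97, 3.31 and 2.70, adjusted p = 0.00117, 6.67e-07 and 3.50e-05, limma). Cd44, a receptor for hyaluronan that is abundant on leukocytes, was higher at 8, 20 and 34 weeks (1.47, 3.15 and 1.86), the first of which was not called by edgeR (adjusted p = 0.0824), and was not called at any time with macrophage or progenitor and fibroblast markers as a covariate. Myc was lower at 8 weeks (−0.89, adjusted p = 0.0104, limma), without overlap between 363 to 451 CPM in CD and 129 to 333 CPM in HFD, and was not called later. Bmp4, a growth factor of the TGF-β family, was lower at 8 weeks (−0.87), and Jun, a subunit of AP-1, at 34 weeks (−0.52). Ppard, a nuclear receptor, was lower at all 3 times (−0.68, −1.01 and −0.40). Several of these genes are known to respond to many other signals.

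Markers of other cells moved with diet in the same libraries. Adipocyte markers (8 genes) summed to between 15876 and 45298 CPM in single mice, with none of the 8 at 0 in any group, and of the 8 genes 1, 5 and 7 were lower in HFD at 8, 20 and 34 weeks and 1, 1 and 0 higher. Macrophage markers (7 of 8 in the table) were higher in HFD for 5, 5 and 7 of 7 genes, with median sums of 501 and 1431 CPM (CD and HFD) at 8 weeks, 1194 and 5477 CPM at 20 weeks and 2912 and 8799 CPM at 34 weeks. Progenitor and fibroblast markers (8 genes, 7 tested) were higher for 5, 7 and 4 of 7, with median sums of 216 and 398 CPM, 191 and 825 CPM, and 273 and 449 CPM. Endothelial markers were higher for 6, 6 and 5 of 6, with sums between 28.0 and 457 CPM in single mice, mural markers for 5, 4 and 2 of 5 tested (14.3 to 495 CPM), and mesothelial markers for 2, 0 and 0 of 3 tested (7.75 to 80.3 CPM). No T cell, B cell or epididymal marker passed the filter, and their sums reached at most 4.42, 5.82 and 8.63 CPM in any mouse. In bulk RNA, fewer cells of a type and less RNA per cell cannot be told apart.

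**Figure D4:**
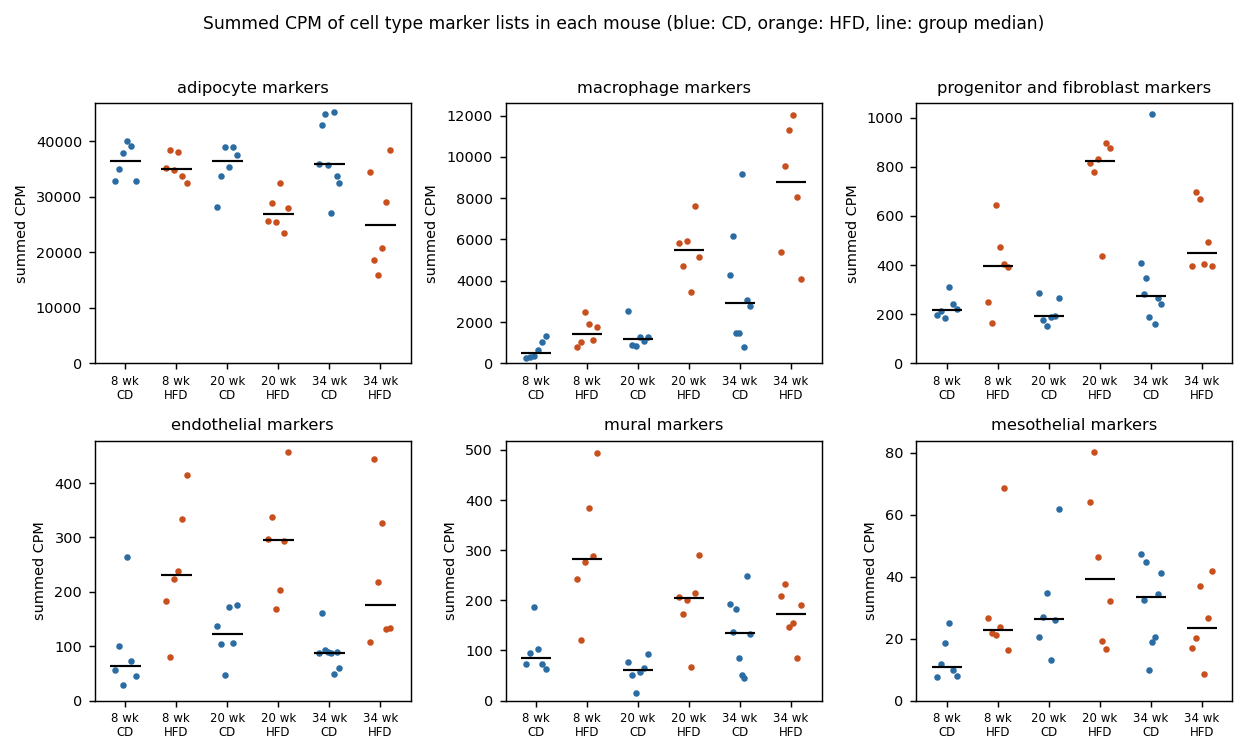
Summed CPM of 6 marker lists in each of the 38 mice, with CD in blue, HFD in orange and a line at each group median. Macrophage sums had medians of 501, 1194 and 2912 CPM in CD and 1431, 5477 and 8799 CPM in HFD at 8, 20 and 34 weeks, and progenitor and fibroblast sums were highest in 20 week HFD mice (median 825 CPM).

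Where the mean log2 level of the macrophage markers in each mouse was a covariate, 6, 6 and 0 of the 20 Wnt genes were called between diets at 8, 20 and 34 weeks, against 35.7%, 13.3% and 2.19% of all genes tested. With the progenitor and fibroblast markers 5, 3 and 1 were, against 24.5%, 3.18% and 9.05%. Both covariates differ between diets, so that a lost call there cannot be told apart from a diet difference taken up by the covariate. Wnt11 stayed called at 8 and 20 weeks under either covariate, with log2 differences of 1.19 and 0.97 (macrophage; adjusted p = 0.000115 and 0.0142, limma) and 1.29 and 1.14 (progenitor and fibroblast; adjusted p = 0.000291 and 0.024). Wnt9a did so too (1.25 and 1.40 with macrophage, 1.23 and 1.34 with progenitor and fibroblast markers), and Wnt5a did so except at 20 weeks with progenitor and fibroblast markers (0.89, adjusted p = 0.0632, limma). Fzd2 was likewise called except at 20 weeks with progenitor and fibroblast markers (1.10, adjusted p = 0.0798, limma). Fzd7 was called at 20 weeks with macrophage markers (0.77, adjusted p = 0.0235, limma) but not with progenitor and fibroblast markers (0.78, adjusted p = 0.0967), and at 34 weeks with neither (0.40 and 0.53, adjusted p = 0.304 and 0.0581). Sfrp1 at 20 weeks fell from 1.61 to 0.03 and −0.17 and was not called, and Axin2 was not called at 8 weeks (−0.65 and −0.52) or 20 weeks (−0.88 and −0.70) under either covariate. Tcf7l2 kept its sign at all times (−0.47, −0.39 and −0.37 with macrophage markers, −0.40, −0.28 and −0.36 with progenitor and fibroblast markers) and was called at 8 weeks with macrophage markers alone (adjusted p = 0.0337, limma). Fzd1 at 20 weeks and Fzd8 at 8 weeks were called under either covariate, Ctnnb1 at 34 weeks with progenitor and fibroblast markers (0.28, adjusted p = 0.0105, limma) and not with macrophage markers (0.27, adjusted p = 0.0764), and Gsk3b at 20 and 34 weeks, Lrp6 at 20 weeks and Tcf7l1 at 34 weeks under neither. Of the other genes of the pathway, Sfrp5 and Nkd1 were called at 8 and 20 weeks under either covariate, and Ccnd1 was called at 34 weeks with progenitor and fibroblast markers alone (1.52, adjusted p = 0.00297, limma). Between times the same covariates were added after the data were seen. From 8 to 20 weeks on HFD no Wnt gene was called with macrophage markers (2.77% of all genes tested), and 1, Fzd1, was with progenitor and fibroblast markers (5.67%). With macrophage markers 5 Wnt genes had an unadjusted p under 0.05, and the share of all genes at that p was not counted. From 8 to 34 weeks on HFD 5 were called with macrophage markers (15.9%), all lower at 34 weeks, so that no call of Sfrp1, Fzd7, Fzd2 or Axin1 as higher held there, and 9 with progenitor and fibroblast markers (45.6%). From 8 to 20 weeks on CD 4 were called with macrophage markers (13.1%), all lower at 20 weeks, and 1 with progenitor and fibroblast markers (5.34%). From 8 to 34 weeks on CD 10 and 12 were called (53.4% and 57.1%). The part of other cells in these differences was not tested beyond these fits.

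Leaving out any 1 mouse left 7 to 8 Wnt genes called at 8 weeks, 12 to 14 at 20 weeks and 4 to 7 at 34 weeks.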

How the data were processed

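RNA-seq of perigonadal adipocytes from 38 mice was analysed, listed in the labels as 114 samples, which are 3 technical replicates per mouse. The deposited CPM values hold 1 column per mouse in which the authors had merged the replicates. According to the submitters' processing notes and the study's methods, stranded TruSeq libraries were aligned to GRCm38 (mm10) with STAR 2.5 and 2.5.2b and counted with featureCounts of Subread 1.5.1 on GENCODE gene models, and TMM normalization is described. Each deposited column sums to 1000000, so no TMM factor is in the values, unlike what was planned for. All values (100.0%) were whole reads within a tolerance of 0.1 reads, and these reads were recovered for tests on counts. The depth was 9275711 to 15480388 reads per mouse.

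Here, log2(CPM + 1) of 10343 genes with a mean above 2.0 was fitted with limma 3.58.1 (trend, 6 groups together, 32 residual degrees of freedom, two-sided) in R 4.3.3, with Benjamini-Hochberg adjustment over those genes. Alternatives were a pseudocount of 0.25, no filter or a mean above 3.0, TMM or median-of-ratios factors, edgeR 4.0.16 and DESeq2 1.42.0 on whole reads, array weights, the replicate number as a block, the mice of 1 time alone, each mouse left out in turn and a fold change of 2 also required. The mean level of a marker list was a covariate for the diet comparisons and, added after the data were seen, for the comparisons of times. The scripts were tested on simulated data. Genes described with values were those called in at least 2 of 3 diet comparisons and the gene with the largest diet difference in each role, and, of the lists of other pathway genes and targets, the 2 largest rises and falls at each time. The other genes given with values (Fzd1, Fzd4, Fzd8, Lrp6, Ctnnb1, Tcf7l1, the low genes called by edgeR, Porcn and Wls) were chosen after their values were seen. Lengths are exon unions of GENCODE vM21, and the study's methods name vM2. The Wnt genes, lists and markers were chosen with earlier results of these data known. Tle5, Aes, Wisp1, Ccn4, Wisp2, Ccn5 and Adgre1 were not matched. The stromal vascular fraction was not analysed here.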

Additional observations from a re-analysis of the deposited data

Results flagged for a closer look

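In 3 of 54 groups of mice tested, 1 mouse lay far from the others, and chance gives about 1 in 20 groups. Wnt5a was 15.7 CPM in 20 week CD mouse 2, where the other 5 CD mice ranged up to 10.02 CPM, Wnt9a was 1.03 CPM in 34 week CD mouse 5, the lowest of the 8, and Axin2 was 8.27 CPM in 8 week HFD mouse 3, the lowest of the 6.

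The diet difference changed with time, by a test of the change itself (limma, adjusted p under 0.05), in 9 cases among the genes described by mouse. From 8 to 34 weeks the log2 difference HFD minus CD changed by −0.82 for Wnt5a, −1.02 for Wnt9a, −1.13 for Wnt11, −0.97 for Fzd2 and 1.02 for Axin2. From 20 to 34 weeks it changed by −0.94 for Wnt11, −1.17 for Fzd2 and 1.56 for Axin2, and from 8 to 20 weeks by 1.05 for Fzd7. In CD mice alone, Wnt5a, Wnt9a, Wnt11 and Fzd2 were higher and Axin2 was lower at 34 than at 8 weeks. The rises of Wnt9a and Fzd2 are not independent of the filter on low values, which they passed narrowly.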

How the results depend on the processing

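The counts of Wnt genes called at 8, 20 and 34 weeks (7, 13 and 5 between diets) moved by over 1.5 times with array weights (13 at 8 and 9 at 34 weeks), no filter (11 at 8 and 10 at 34 weeks), the stricter filter (3 at 8 weeks), a fold change of 2 also required (4, 6 and 0), edgeR and DESeq2 (11 each at 34 weeks), the macrophage covariate (6 at 20 and 0 at 34 weeks) and the progenitor and fibroblast covariate (3 at 20 and 1 at 34 weeks). Between 20 and 8 weeks on CD the count of 0 became 1 with DESeq2, 7 with array weights, and 4 and 1 with the macrophage and progenitor covariates, which also turned the 8 between 20 and 8 weeks on HFD into 0 and 1, the 10 between 34 and 8 weeks on HFD into 5 with macrophage markers, and the 2 changes of the diet difference from 8 to 20 weeks into 0 with either. With the stricter filter the count was 9 between 34 and 8 weeks on CD and 5 between 20 and 8 weeks on HFD. For the change of the diet difference, array weights gave 6 from 8 to 20, 12 from 8 to 34 and 13 from 20 to 34 weeks, DESeq2 gave 11 from 8 to 34 and 10 from 20 to 34 weeks, edgeR gave 10 from 20 to 34 weeks, and the stricter filter gave 3 and 2. The filters, edgeR and DESeq2 change which genes are tested. At 34 weeks edgeR tested 27 Wnt genes and DESeq2 32, in place of 20. Of all genes at that time, edgeR called 5542 of 12924 and DESeq2 5719 of 15808. The edgeR calls at 34 weeks included Sfrp2, Sfrp4, Fzd6 and Wnt5b, which were under the filter. The cause of the other changes was not tested. With 1 mouse left out the counts ranged from 7 to 8, 12 to 14 and 4 to 7 between diets, from 0 to 1 between 20 and 8 weeks on CD, and from 2 to 3, 6 to 8 and 4 to 6 for the changes of the diet difference.

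The calls of Wnt11, Wnt9a, Wnt5a and Fzd2 at 8 weeks, and of Wnt11 and Wnt9a at 20 weeks, held under every alternative in which the gene was tested, apart from the fold change of 2, which Wnt9a did not reach (0.92 and 0.83). The stricter filter removed Wnt9a, Wnt11 and Fzd2. Values that changed sign, none of them called, were those of Wnt9a at 34 weeks (0.30 with the macrophage and 0.13 with the progenitor covariate), Wnt11 at 34 weeks (−0.19, array weights), Fzd7 at 8 weeks (−0.058 and −0.067 with the covariates), Gsk3b at 8 weeks (−0.074 DESeq2, −0.063 TMM, −0.089 edgeR, −0.066 macrophage, −0.071 median of ratios, −0.038 progenitor) and Axin2 at 34 weeks (0.47 macrophage, 0.35 progenitor). Sfrp1 turned to −0.26 and −0.43 at 8 weeks with the covariates, to −0.17 at 20 weeks with the progenitor covariate, and at 34 weeks to −0.77 (DESeq2), −0.058 (TMM), −0.48 (array weights), −0.79 (edgeR), −1.12 (macrophage), −0.058 (median of ratios) and −0.79 (progenitor). With 1 mouse left out, values at 34 weeks ranged from −0.27 to 0.10 for Axin2, −0.33 to 0.36 for Sfrp1, −0.036 to 0.18 for Wnt11 and −0.29 to 0.00083 for Wnt9a.

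Mice of both diets carry the same replicate numbers in the labels, which state no pairing. Over 18 pairs the correlations of their deviations ran from −0.51 to 0.53 with 8 above 0.1. Pairs of unlike number were not compared, so whether mice of 1 number share more than that number was not tested. With the replicate block 8 Wnt genes were called at 34 weeks, 1 between 20 and 8 weeks on CD, and 8 and 14 between diets at 8 and 20 weeks.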
